A study of Mus musculus with 2 samples.

Results

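The growth hormone (GH) and insulin-like growth factor (IGF) axis was examined in mouse liver through 10 genes: Ghr, Igf1, Igfals, Igfbp1, Igfbp2, Igfbp3, Igfbp4, Socs2, Socs3 and Cish. Probe sets were taken as members when the platform annotation gave them 1 gene symbol and that symbol was one of the 10. This gave 28 probe sets of the 34945 with a single symbol, for 10 of 18193 genes. Of the 10 genes, 6 had several probe sets and 4 (Igfals, Igfbp1, Igfbp2 and Cish) had 1.

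The series holds 2 Affymetrix arrays of liver RNA, 1 from Bglu3 congenic mice and 1 from C57BL/6 apoE-/- control mice. A congenic strain carries a donor stretch of chromosome on the background of another strain. The Bglu3 locus, named for blood glucose, lies on chromosome 1, and neither the donor strain nor the borders of the segment are stated in the labels. Both groups ate chow from weaning at 3 weeks of age, and from 6 weeks a Western diet for 12 weeks. The labels give hyperglycemia and a C57BL/6 strain for both groups. They name apoE-/- for the control group alone, and whether the congenic mice carry it too is not stated. The labels state neither the number nor the sex of the mice behind an array, nor whether they were fed or fasted or whether RNA was pooled. Each group has 1 array, so the spread between animals is unknown, nothing could be tested, and every difference below describes these 2 arrays.

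In this axis, GH from the pituitary binds its receptor on hepatocytes, and the kinase Jak2 and the transcription factor Stat5b carry the signal to genes such as Igf1, Igfals, Socs2 and Cish. The liver is the main source of circulating IGF-1, which travels in complexes with binding proteins and the acid-labile subunit. Socs2, Socs3 and Cish belong to a family of proteins that are made in response to cytokine signals and restrain them. Igfbp1 is known for its induction in fasting and its repression by insulin, Socs3 for its induction by interleukin-6 and other cytokines.

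The axis differed little between the arrays. Values are the deposited linear intensities. A difference is the congenic minus the control value after each was taken as log2(intensity + 5). A probe set was called expressed if it reached the 50th percentile on either array, which 26 of the 28 member probe sets did. A difference of 1.5-fold or more, 0.58 on the log2 scale, was reached by 3 of these 26 (11.5%), 1 higher and 2 lower in the congenic array. Among all 20973 expressed probe sets, 13.3% were past 1.5-fold, 7.22% higher and 6.04% lower. That share fell with brightness, from 19.6% at mean intensities under 100 to 7.42% from 100 to 1000 and 4.69% at 1000 or more. Of the 26 member probe sets, 13 had a mean of 1000 or more, and none of those was past 1.5-fold. The share over all intensities is thus not a background matched to the members. None of the 26 was past 2-fold, compared with 3.43% of expressed probe sets of any brightness. Socs3 and Igfbp1 were lower in the congenic array by the widest margins among the 10 genes, Ghr and the other binding proteins were slightly lower, and Igf1, Igfals and Cish were nearly equal.

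Most of the differences were small and had the same sign. Of the 26 expressed member probe sets, 22 (84.6%) were lower in the congenic array at any size, beside 46.3% of all expressed probe sets. Their median difference was -0.19, beside 0.03 over all expressed probe sets. By the brightest probe set of each gene, the one with the highest mean of both arrays, all 10 genes were lower, with a median of -0.20. However, Cish passed 0 after median centring of the arrays (0.0057). Igf1 (0.0030) and Socs2 (0.21) were above 0 as the mean of their expressed probe sets. Of 12613 expressed genes, 43.8% were lower, with a median of 0.04. None of the 10 was past 1.5-fold by its brightest probe set, compared with 12.9% of expressed genes of any brightness. Socs3 passed that limit with a loess trend removed (-0.587), as the mean of its probe sets (-0.64) and by its 1 plain _at probe set (-0.66). Probe sets of a gene read the same 2 RNA preparations and the genes share 1 pathway, so neither are replicates.

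**Figure D1:**
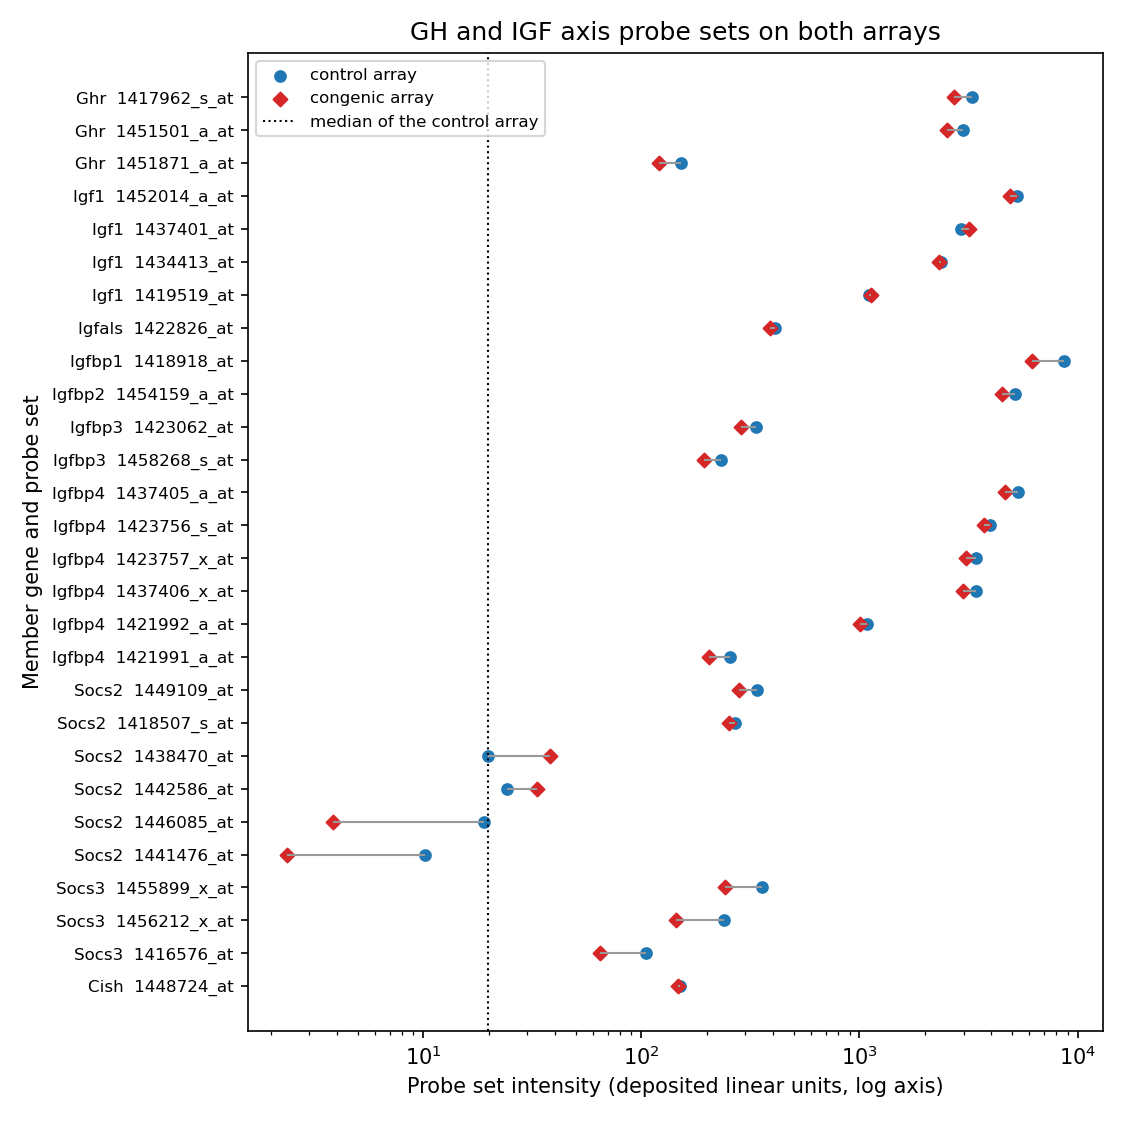
Intensity of each of the 28 member probe sets on the congenic (red diamonds) and control (blue circles) array, on a log axis, with the median of the control array as a dotted line. The wide gaps at the left belong to Socs2 probe sets near or below that median, Igfbp1 and the 3 Socs3 probe sets have the control value to the right, and the Igf1 pairs nearly coincide.

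Ghr, the first step of the pathway, was slightly lower in the congenic array. It encodes the transmembrane GH receptor and, through alternative splicing in mouse, the circulating GH binding protein. Its brightest probe set (1417962_s_at) had an intensity of 2706 in congenic and 3272 in control liver, a log2 difference of -0.27. Its other bright probe set (1451501_a_at) stood at 2527 against 2987 (-0.24). A dimmer one (1451871_a_at) stood at 120.8 against 151.2 (-0.31). All 3 were lower in the congenic array and lay within 0.07 of each other. Of expressed probe sets with a mean intensity of 1000 or more, 10.5% had a difference as low as that of the brightest Ghr probe set, and none of the 3 was past 1.5-fold.

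Igf1, the hormone itself, was nearly equal on both arrays. Its 4 probe sets were all bright, and their differences lay on both sides of 0. The brightest (1452014_a_at) stood at 4924 in congenic and 5266 in control liver, a log2 difference of -0.10. The next (1437401_at) stood at 3186 against 2934 (0.12). The remaining pair stood at 2312 against 2360 (1434413_at, -0.03) and at 1124 against 1109 (1419519_at, 0.02). The mean of the 4 differences was 0.0030 with an SD of 0.09 between probe sets, and which sign the gene takes depends on the probe set chosen. Igfals encodes the acid-labile subunit, the liver protein that holds IGF-1 and a binding protein in a large circulating complex. It had 1 probe set, at 387 in congenic and 409 in control liver (log2 difference -0.08), so the values on the arrays were close.

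The binding proteins among the 10 genes, Igfbp1 to Igfbp4, were lower in the congenic array, Igfbp1 more than the other three. Igfbp1 encodes the binding protein whose level in blood follows fasting and insulin. Its 1 probe set (1418918_at) had an intensity of 6160 in congenic and 8634 in control liver, so the congenic value was 0.713 of the control value. The log2 difference of -0.49 was inside the 1.5-fold limit. It was nonetheless low for so bright a probe set: 2.99% of the 1876 expressed probe sets with a mean of 1000 or more had a difference as low or lower, and 2.03% were lower by 1.5-fold or more. With 1 probe set, no second reading of Igfbp1 was at hand on these arrays.

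Igfbp2, a binding protein made by hepatocytes, stood at 4491 in congenic and 5141 in control liver (log2 difference -0.19). It is the only one of the 10 genes on chromosome 1, the chromosome of the Bglu3 locus, and whether it lies inside the donor segment cannot be told from the labels. In the RefSeq gene table its neighbour is Igfbp5, another binding protein gene, which was dim and stood at 69.2 against 99.3 (-0.49). Igfbp3 encodes the main carrier of IGF-1 in the large complex, and neighbours Igfbp1 on chromosome 11. Its probe sets stood at 288 against 334 (1423062_at, -0.21) and at 193 against 231 (1458268_s_at, -0.25), so both readings of Igfbp3 were lower and close to each other.

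Igfbp4 encodes a binding protein that withholds IGFs from their receptor until a protease cleaves it. It had 6 probe sets, the most of the 10 genes together with Socs2, and all 6 were lower in the congenic array. The brightest (1437405_a_at) stood at 4655 in congenic and 5308 in control liver (log2 difference -0.19). The dimmest (1421991_a_at) stood at 204.7 against 255.8 (-0.31), the lowest difference of the 6. The others were 3708 against 3975 (1423756_s_at, -0.10), 3068 against 3429 (1423757_x_at, -0.16), 2991 against 3417 (1437406_x_at, -0.19) and 1007 against 1083 (1421992_a_at, -0.10). None of the probe sets of Igfbp1, Igfbp2, Igfbp3 and Igfbp4 was past 1.5-fold. Over the 13 member probe sets with a mean intensity of 1000 or more, 11 were lower at any size, with a median of -0.16 and none past 1.5-fold. Among all 1876 expressed probe sets of that brightness, 49.1% were lower at any size, the median was 0.0045 and 4.69% were past 1.5-fold.

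**Figure D2:**
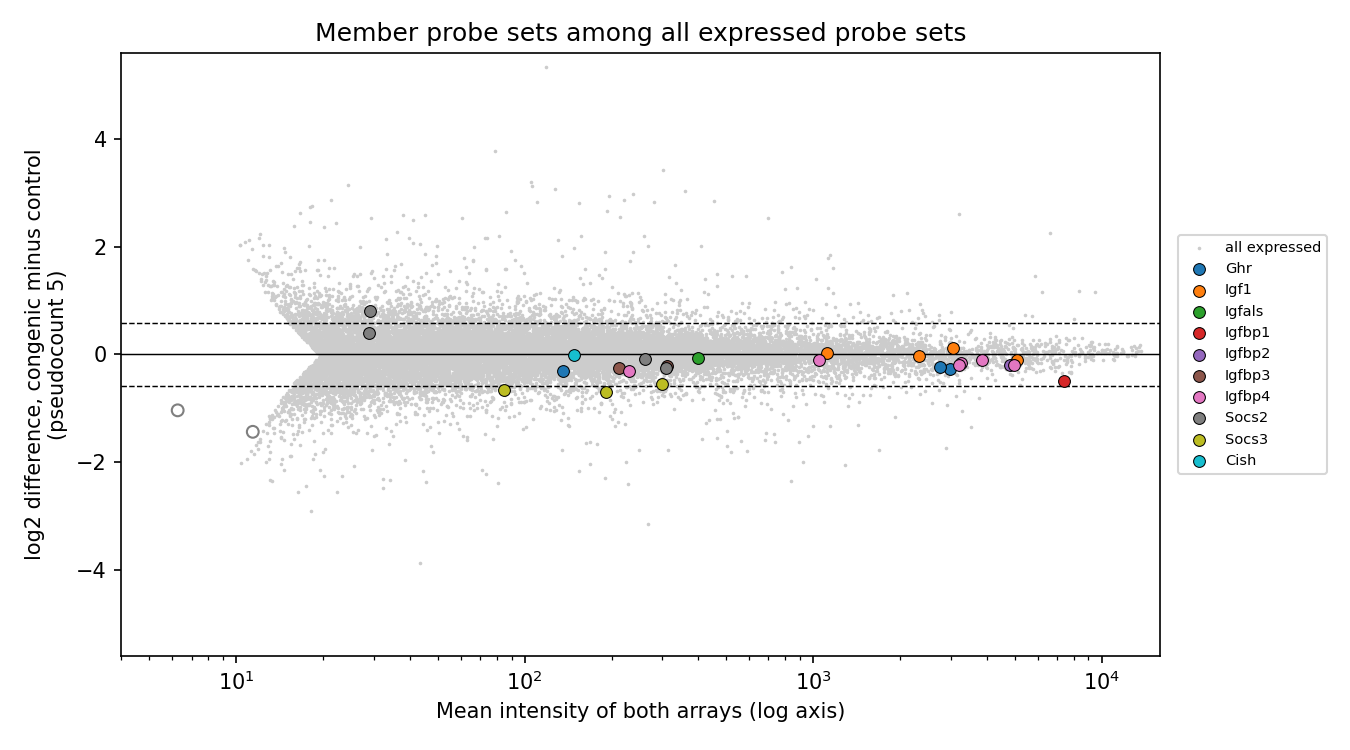
Log2 difference (congenic minus control, pseudocount 5) against mean intensity on a log axis, for the member probe sets (coloured by gene, open circles not expressed) and all expressed probe sets with 1 symbol (grey). Dashed lines mark 1.5-fold. The 3 Socs3 points lie at or near the lower line, of the 13 members with a mean of 1000 or more, 11 lie under 0 with Igfbp1 lowest and the other two, both Igf1, lie above it, and the dim Socs2 points spread from -1.44 to 0.80.

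Among the feedback inhibitors, Socs3 was lower on every probe set. Socs3 encodes a protein that blocks signalling through the interleukin-6 receptor subunit and can also bind other cytokine receptors. Its brightest probe set (1455899_x_at) stood at 243 in congenic and 357 in control liver (log2 difference -0.55). The second (1456212_x_at) stood at 144.7 against 239 (-0.71), and the third (1416576_at) at 64.5 against 104.8 (-0.66). These last 2 are the member probe sets counted as lower by 1.5-fold or more, and the first lay just inside the limit. The 3 readings had a mean of -0.64 and an SD of 0.08. By its brightest probe set, 5.99% of expressed genes had a lower difference than Socs3, while 5.26% of expressed genes were lower by 1.5-fold or more. Among expressed probe sets with a mean of 100 to 1000, 3.72% were as low as the first and 1.85% as low as the second. In that range 3.17% were lower by 1.5-fold or more. Of those under 100, 7.19% were as low as the third, and 9.10% were lower by 1.5-fold or more. Probe sets whose names end in x_at can bind transcripts of other genes, which applies to both brighter Socs3 probe sets and not to the third.

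Socs2, the family member known for restraining GH receptor signalling, gave readings that disagreed. Its brighter probe sets were 282 on the congenic against 337 on the control array (1449109_at, log2 difference -0.26) and 252 against 269 (1418507_s_at, -0.09). The dimmer expressed ones went the other way, at 38.3 against 19.8 (1438470_at, 0.80) and 33.4 against 24.1 (1442586_at, 0.40). The first of these is the 1 member probe set counted as higher by 1.5-fold or more, and its control value is almost at the array median of 19.7. The remaining pair was not expressed, at 3.84 against 19.0 (1446085_at, -1.44) and 2.37 against 10.2 (1441476_at, -1.04). Between probe sets of the same gene the pooled SD of the difference was 0.43 at mean intensities under 100, 0.20 from 100 to 1000 and 0.08 above, and the spread of the dim Socs2 readings falls where that disagreement was widest.

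Cish, which encodes a suppressor induced by Stat5, had 1 probe set (1448724_at), at 147.7 in congenic and 149.6 in control liver. The log2 difference of -0.02 was the smallest of the 10 genes by brightest probe set. The genes known as direct GH and Stat5 targets, Igf1, Igfals, Cish and Socs2, thus lay between -0.26 and -0.02 by their brightest probe sets.

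Promoter sequences of the members were searched for the letters of a STAT binding site, TTCNNNGAA, and of a FOXO-type site within the insulin response element, CAAAACA. Stretches are shown for Socs3, Igfbp1, Cish and Igfals, the only members with a match in a window. By difference, Socs3 and Igfbp1 lay at the low end of the members and Cish and Igfals near 0. The windows, from RefSeq (GRCm38.p6), run from 250 bases before to 50 bases after each annotated start, and 9 of the 10 genes had at least 1, with 13 windows in all. Both strands were searched, TTCNNNGAA reads the same on both, and no member window held both motifs. TTCNNNGAA was present in 4 of the 13 member windows (30.8%) and in 8.3% of all 32851 windows. CAAAACA was present in 1 of 13 (7.69%) and in 6.28% of all windows. Stretches around the matches are printed 5′ to 3′ on the strand of the gene, with the match in capitals.
Socs3, chr11:117969462-117969570, minus strand: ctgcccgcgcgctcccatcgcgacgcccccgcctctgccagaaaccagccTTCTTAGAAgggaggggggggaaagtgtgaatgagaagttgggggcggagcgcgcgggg
Cish, chr9:107296609-107296678, plus strand: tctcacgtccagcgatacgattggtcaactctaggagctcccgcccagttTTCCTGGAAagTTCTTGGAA
Igfals, chr17:24878123-24878230, plus strand: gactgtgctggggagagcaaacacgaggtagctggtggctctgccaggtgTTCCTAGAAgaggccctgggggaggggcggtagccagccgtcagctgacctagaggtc
Igfbp1, chr11:7197629-7197735, plus strand: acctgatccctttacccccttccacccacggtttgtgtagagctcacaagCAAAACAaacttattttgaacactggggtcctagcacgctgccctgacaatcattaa
Cish holds 2 matches of the STAT letters, Socs3 1, and each of 2 Igfals windows 1, of which the second window is shown. The genes with STAT letters in their windows thus include both one of the lowest members (Socs3) and the one nearest to 0 (Cish). A match of letters is a description of the window and not a binding site.

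The rest of the pathway was read from lists of other genes, each represented by its brightest probe set. Beside the counts of these lists, 12.9% of all 12613 expressed genes were past 1.5-fold either way and 5.26% were lower. A share higher was computed over expressed probe sets only, at 7.22%. In the list of GH receptor signalling, 15 of 16 measured genes were expressed, with 1 higher and 1 lower by 1.5-fold or more and a median of 0.06. Socs1, another suppressor of the family, stood at 33.5 in congenic and 57.2 in control liver (log2 difference -0.69). The adaptor gene Sh2b3 stood at 116 against 70.7 (0.68), with another probe set at -0.45. The phosphatase gene Ptpn1 followed at 0.48. Jak2 stood at 211 against 205 (0.04) and Stat5b at 324 against 397 (-0.29), the latter with another probe set at -0.99. The kinase was thus nearly equal and the transcription factor slightly lower by its brightest probe set.

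Of 17 measured genes for other IGF ligands, receptors, binding proteins and their adaptors, 14 were expressed, 1 was higher by 1.5-fold or more, 0 were lower, and the median was 0.16. The 1 was Irs1, an adaptor of the insulin and IGF-1 receptors that lies on chromosome 1, at 488 in congenic and 210.0 in control liver (log2 difference 1.20). Grb10, another adaptor, was next at 0.53. The lowest were Igfbp5 (-0.49, above) and Igf2, the fetal ligand, at 42.6 against 59.1 (-0.43). Igf1r, the IGF-1 receptor, was dim on both arrays, at 32.2 against 31.9 (0.01). Igfbp7, a binding protein relative known from endothelial cells, stood at 2929 against 2566 (0.19), with another probe set at -0.92. Igfbp6, a binding protein with a preference for IGF-2, stood at 60.3 against 54.2 (0.14), so Igfbp6 and Igfbp7 were slightly higher by their brightest probe sets and Igfbp5 was lower.

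Genes whose sex-biased expression in liver depends on the GH pattern covered a wider range than the axis itself. Male-biased genes had 13 expressed members, 1 higher and 3 lower by 1.5-fold or more, beside 5.26% of all expressed genes lower, and a median of -0.30. The median was -0.075 with no expression filter. It was -0.071, with 2 genes lower, when both arrays had to reach the 50th percentile. Under a 75th percentile filter it was 0.043, with 1 lower, so its sign rests on the filter. The 3 lower ones were the organic anion transporter gene Slco1a1 (log2 difference -1.51), the fatty acid hydroxylase gene Cyp4a12a (-1.42) and the elongase gene Elovl3 at 84.9 against 185.9 (-1.09). Cyp4a12a, at 7.49 against 28.3, was below the median of the congenic array and counted as expressed through the control array alone. The complement gene C6 was higher (1.26), and Serpina12 was at 0.58, just inside the limit. Female-biased genes had 14 expressed members, 0 higher and 5 lower, beside the same 5.26% of expressed genes lower, and a median of -0.40. With the mean of each gene's expressed probe sets the median was -0.19, with 1 higher and 5 lower. With expression required on both arrays, 4 were lower and the median was -0.39. Cyp3a16 (-2.16, at 13.0 against 75.8) and the sulfotransferase gene Sult2a2 (-1.36, at 1973 against 5054) were lowest. Cyp3a16 was below the median of the congenic array and counted as expressed through the control array alone. Atp6v0d2 (0.52) and Cyp17a1 (0.45) were highest. Genes of both sexes' lists were among the lower ones. These genes were also on lists that earlier results of these arrays had shown as lower, so their counts are no independent support.

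Genes that share known regulators with Igfbp1 and Socs3 differed in both directions. Of 13 insulin-repressed FOXO1 target genes and FOXO genes, all expressed, 1 was higher and 2 lower by 1.5-fold or more. Over all expressed genes, 12.9% were past that limit either way. The median of the list was -0.002. G6pc, the glucose-6-phosphatase catalytic subunit, stood at 2923 in congenic and 1321 in control liver (log2 difference 1.14), opposite in sign to Igfbp1. The kinase gene Pdk4 was at 0.52. Pck1, a gluconeogenic enzyme gene, stood at 6586 against 6668 (-0.02). Foxo3 and Foxo1 themselves were the 2 lower ones, at -0.80 and -0.65, and other Foxo1 probe sets reached 0.16.

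Of 25 genes of the interleukin-6 and STAT3 acute phase response, all expressed, 7 were higher and 4 lower by 1.5-fold or more. Over all expressed genes, 12.9% were past that limit either way and 5.26% were lower. The median of the list was 0.14. The highest were secreted acute phase proteins. Orm2 had a log2 difference of 2.60, Saa2 2.26, the pentraxin Apcs 1.46, Lcn2 1.16 and Saa1 1.15. The lowest were receptor chains, Il1r1 at 269 against 735 (-1.43) and Il6ra, the ligand-binding interleukin-6 receptor chain, at 472 against 961 (-1.02), with its other probe set at -0.999. Stat3 stood at 732 against 680 (0.11). Socs3 was lower on the same arrays on which several acute phase genes were higher and Il6ra was lower. A link between these values, or between those of Igfbp1 and the FOXO1 target genes, was not tested.

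**Figure D3:**
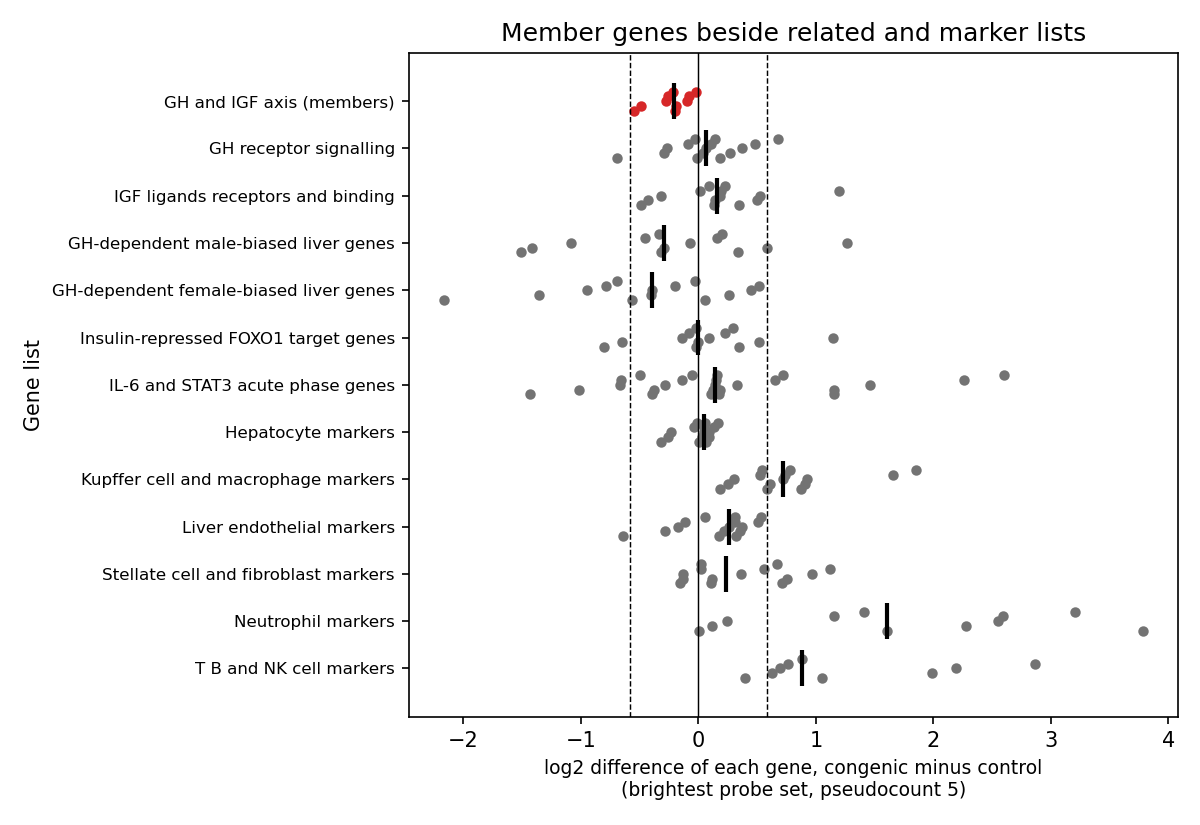
Log2 difference (congenic minus control) of each expressed gene by its brightest probe set, for the 10 members (red) and 12 other lists (grey), with the median of each list as a black bar and 1.5-fold as dashed lines. The members lie between -0.55 and -0.02, a narrower range than the acute phase genes (-1.43 to 2.60). The hepatocyte markers also lie in a narrow range (-0.32 to 0.17).

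Markers of blood and resident immune cells were higher in the congenic array. Beside the counts below, 12.9% of all expressed genes were past 1.5-fold either way and 5.26% were lower. Because the RNA came from whole liver, more cells of a type and more RNA per cell cannot be told apart, nor fewer and less. Hepatocyte markers, the cells in which most of this axis is expressed, had 0 of 15 past 1.5-fold and a median of 0.05. The lowest were at -0.32 (Tdo2) and -0.26 (Hnf4a), the highest at 0.17 (Hal) and 0.13 (Alb). Their summed intensity was 112135 in congenic and 110978 in control liver. The brightest of them stood near the highest intensity on each array (14440 congenic, 13395 control), with Alb at 14121 against 12910. Whether probe sets that bright can show a change in hepatocytes was not tested. Kupffer cell and macrophage markers were higher by 1.5-fold or more in 9 of 15, with a sum of 38534 against 25857. They ran from Cd5l (0.19) and Lyz2 (0.25) to Timd4 (1.66) and Marco (1.85). Neutrophil markers were higher in 8 of 11, with a sum of 12832 against 5202. Of these sums Lcn2, also on the acute phase list, made up 8590 and 3853. The count of higher neutrophil markers was 4 where expression was required on both arrays, since Camp, Ltf, Mpo and Prtn3 were below the median of the control array. The 8 were Camp (3.78), Prtn3 (3.20), Mpo (2.59), Ngp (2.55), Ltf (2.27), S100a8 (1.61), S100a9 (1.41) and Lcn2 (1.16), while Cxcr2 (0.12) and Csf3r (0.01) were lowest. Lymphocyte markers were higher in 8 of 9, with a sum of 1311 against 378 over 13 measured genes. They ran from Cd8a (0.39) and Ms4a1 (0.62) to Nkg7 (1.05), Cd79b (1.99), Ighm (2.19) and Jchain (2.87). The 8 expressed Ighm probe sets ran from -0.09 to 2.66. Of the markers not expressed, Cd3e was lower (-0.34), while Cd79a (1.12), Cd4 (0.93) and Ncr1 (0.30) were higher. Endothelial markers were higher in 0 and lower in 1 of 15, with sums of 6002 and 5468. They ran from Lyve1 (-0.65) and Tie1 (-0.29) to Kdr (0.51) and Cdh5 (0.53), with another Cdh5 probe set at 1.16. With the mean of each gene's expressed probe sets, 1 endothelial marker was higher and 0 were lower. Stellate cell markers were higher in 5 of 14, with sums of 9541 and 8105, between Des (-0.16) and Pdgfra (-0.13) and Col3a1 (0.97) and Col1a1 (1.12). No marker of these lists was at or below an intensity of 1. The part of this shift in the values of Socs3, Igf1 and Igfbp3, which non-parenchymal cells are also known to express, was not tested.

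As facts of the arrays, the congenic array had a median intensity of 19.3 and the control array one of 19.7, a shift of -0.02 on the log2 scale, and no rescaling was applied. Apoe, which the control strain lacks in functional form, stood at 229 in congenic and 118 in control liver (log2 difference 0.93). The position of its probe set relative to the altered part of the gene was not known, and the value therefore checks no genotype.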

How the data were processed

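Liver total RNA (8 µg) was made into biotinylated cRNA by the Affymetrix protocol, per the labels' protocols. The authors deposited linear intensities of 45101 probe sets on each array. For their summary and scaling methods, no source used here gives a description. The number of arrays, 1 per group, limits the precision. Control probe sets (64), those with several symbols (932) and those with none (9160) were left out. Names came from the platform annotation, and no sequence of a probe was used. Differences were computed as log2(intensity + 5) in Python 3.11.15 with pandas 2.3.3. The pseudocount makes differences of dim probe sets smaller. The 1.5-fold limit stands in place of a test.

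Every member and each of its probe sets is reported. In each other list the 2 highest and 2 lowest expressed genes and all past 2-fold were named, as was Apoe. Jak2, Igf1r, Igfbp6, Igfbp7, Pck1 and Stat3 were added for their place in the pathway after their values were seen. The members and lists were chosen with earlier results of these data known. List genes without a probe set of 1 symbol are not reported here. Alternatives were 3 scalings (median centring, quantile, loess with a span of 0.3), pseudocounts of 20 and 0, 3 expression filters, a 2-fold limit and 2 other ways to represent a gene. The procedure was tested on simulated data with planted differences far larger than those of the expressed members. That test does not cover differences of the members' size.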

Additional observations from a re-analysis of the deposited data

How the results depend on the processing

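The median difference of the member genes ran from -0.23 to -0.18 over 11 alternatives. The 3 expression filters and the 2-fold limit left it at -0.20 and could not change it. The brightest probe sets of all 10 genes passed each filter, and a fold limit does not enter a median. With plain _at probe sets the median covers 7 of the 10, since Ghr, Igfbp2 and Igfbp4 have none. Of 140 values of single member probe sets under 5 alternatives, 136 moved by less than 0.34. This is the SD between probe sets of a gene over all intensities, a loose limit. That SD was 0.20 from 100 to 1000 and 0.08 above, and the median member difference was -0.19. A value could thus lose its difference and still count as unmoved. The 4 that moved were the Socs2 probe sets that were not expressed, at -0.43 and -0.71 with a pseudocount of 20 and -2.10 and -2.31 with none. The brightest Igf1 probe set ranged from -0.11 to -0.07, but the gene was at 0.12 by its brightest plain _at probe set. Cish ranged from -0.07 to 0.0057, so neither gene had a settled sign. Socs2 was at 0.21 as the mean of its expressed probe sets. The count of member probe sets higher by the limit became 0 with a pseudocount of 20, with the 75th percentile filter and at 2-fold. The count of lower ones became 1 with a pseudocount of 20, 4 with no filter and 0 at 2-fold. Over the 12 other lists, 23 genes were higher and 7 lower at 2-fold, beside 41 and 16 at 1.5-fold, with a gene counted once in each list that holds it. The median of male-biased genes was 0.043 with the 75th percentile filter. That of neutrophil markers was 2.08 with that filter, 1.16 with expression on both arrays and 2.27 with plain probe sets, and that of lymphocyte markers 2.19 with the 75th percentile filter. Lymphocyte markers higher by the limit numbered 3 with the 75th percentile filter, and stellate cell markers 3 with the mean of probe sets. In GH receptor signalling, 3 genes were lower with that mean. No paired analysis was possible because each group has 1 array. Dim signals near the array median limit what can be read from the dim Socs2 probe sets.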
